A study of Mus musculus with 15 samples.

Results

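This account follows 8 genes of the kinase and transporter system that sets cell chloride: the SPAK/OSR1 kinase genes Stk39 and Oxsr1, the WNK kinase genes Wnk1, Wnk2 and Wnk4, and the cotransporter genes Slc12a2, Slc12a4 and Slc12a7. They are 8 of 54418 gene IDs in the table of the series, and all 8 passed the filter on low counts that left 14925 genes for testing. Stk39 and Slc12a2 were selected on their measured CPM in these same libraries, Stk39 for being on in metastasis-derived and off in primary-derived organoids and Slc12a2 for being lower in the later metastases. Their differences from primary organoids and between Met3 and Met1 are therefore given as descriptions without a p-value. Their other comparisons between rounds carry one but rest on the same libraries. The other 6 genes joined as members of the same families. Stk39 passed the filter only through its metastasis libraries.

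The libraries are poly(A)-selected RNA-seq of mouse colon cancer organoids, which are tumour epithelial cells cultured in 3 dimensions. All carry the genotype AKP, which the labels do not spell out, and all had passed through C57Bl6 recipient mice with an intact immune system, whose age is not stated. Met1, Met2 and Met3 are organoids from liver metastases of transplant rounds 1, 2 and 3, and Primary2 and Primary3 are organoids from the primary tumours of rounds 2 and 3. Each group has 3 libraries, there is no primary group of round 1, and the labels name no drug treatment. The labels do not say whether the 3 replicates are separate mice, lines or cultures, and p-values then cover the variation among these libraries alone, which may be technical.

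The WNK kinases sense chloride and osmotic stress. They phosphorylate and switch on the Ste20-family kinases SPAK, the product of Stk39, and OSR1, the product of Oxsr1, which share the same docking sites on WNKs and on their targets. SPAK and OSR1 in turn phosphorylate the Slc12 cotransporters: this activates NKCC1, the product of Slc12a2, which brings sodium, potassium and chloride into the cell, and inhibits the KCC transporters, here KCC1 (Slc12a4) and KCC4 (Slc12a7), which let potassium and chloride out. In intestinal epithelium NKCC1 sits on the basolateral side and supplies the chloride that crypt cells secrete through CFTR. All of these steps act on proteins, and the values below are mRNA levels.

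Because Stk39 and Oxsr1 are paralogs, the stretch in which their transcripts are most alike shows how well reads of the pair could be told apart. It lies in exon 3 of 18 in both genes, inside the kinase-coding sequence. In GRCm38, equal to mm10, the Stk39 stretch is chr2:68398427-68398486 on the minus strand (coding bases 404 to 463) and the Oxsr1 stretch is chr9:119294418-119294477 on the minus strand (coding bases 230 to 289). Capitals mark the 9 of 60 bases that differ.
Stk39: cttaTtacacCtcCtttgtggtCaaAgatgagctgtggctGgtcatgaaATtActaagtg
Oxsr1: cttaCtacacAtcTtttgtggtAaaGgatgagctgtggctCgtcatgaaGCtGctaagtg
Over the aligned coding sequence 1110 of 1494 bases were identical (74.3%). The longest run that the transcripts of both genes share exactly was 15 bases, and 0 sequences of 31 bases were shared by any pair among the 8 genes.

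Total counts ran from 14122203 to 21306543 per library. Of 8 epithelial markers 8 were tested. Their summed level (CPM, counts per 1000000 after TMM scaling) lay between 5536 and 8071 in the Primary2 libraries and between 6710 and 7835 in those of Primary3. It lay between 10595 and 13238 in Met1, between 5458 (replicate 1) and 14368 in Met2, and between 11247 and 14809 in Met3. The sums were thus higher in 8 of 9 metastasis libraries than in all primary ones. In those libraries Krt8, Krt18 and Krt19, which make up most of the sum, each lay above all primary libraries, as did Cdx2. Epcam did not, at 744 to 969 CPM in metastasis and 851 to 1058 CPM in primary libraries. Cdh1 did not either, at 215 to 512 and 302 to 647 CPM, and Vil1 and Krt20 overlapped. The sum therefore does not show more epithelial RNA in general. Its part in the differences of the 8 genes was not tested. Fibroblast markers summed to at most 5.15 CPM, with 0 of 7 tested, and the immune list to 4.04 to 28.97 CPM, most of it Cd68, with 3 of its 7 genes at 0 in every library. Endothelial markers stood at 2.65 to 46.3 CPM in Met1 (mostly Vwf) and at most 1.34 CPM elsewhere, with Kdr at 0 throughout. Hepatocyte markers summed to 1.38 to 6.01 CPM in Met1 and at most 0.966 CPM elsewhere. Met2 replicate 1 stood apart: over the 500 most variable genes it correlated with its group mates at r = 0.236 and 0.299. Every other library had at least 0.676 with 1 or more mates. Met2 replicate 1 correlated better with a library of another group, at r = 0.486, which is also the highest such value of Met1 replicate 1. It held the highest Dcn (2.27 CPM), Col3a1 (1.67 CPM) and Pdgfra (1.07 CPM) of all 15 libraries. It also had the highest Stk39 and the lowest Slc12a2, Wnk1 and Wnk4 of its group, and the fitted values of Stk39 and Slc12a2 that use Met2 are given below with and without it.

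Stk39 (ENSMUSG00000027030, chromosome 2, 68210445 to 68472268, minus strand) encodes SPAK. It stood at 32.5, 45.1 and 3.97 CPM in Met1, at 52.1, 27.0 and 4.26 CPM in Met2, and at 13.02, 30.0 and 6.13 CPM in Met3. The Primary2 libraries held 0, 0.324 and 0 CPM, and those of Primary3 held 0.0673, 0 and 0 CPM. All 9 metastasis libraries, those of the first round included, lay above all 6 primary libraries. The 6 primary libraries held 8 counts in all, 7 of them in Primary2 replicate 2 and 1 in Primary3 replicate 1, and 4 were at 0. A count of 0 allows a level of up to 0.142 to 0.193 CPM in those 4 libraries (3 counts, counting error only).

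The ratio of pooled CPM was 293 for Met2 and Met3 against both primary groups (2136 against 8 counts, 95% exact binomial counting interval 148 to 680). For Met1 against both primary groups it was 355 (1588 against 8 counts, 179.9 to 825). Within round 2 it was 249.6 (1256 against 7 counts, 121 to 622), and within round 3 it was 758 (880 against 1 count, 136 to 29989). These intervals cover counting error only, and the width of the last shows how little a single count fixes the denominator. The 2 occupied primary libraries set the fitted values too. The fitted log2 difference of later metastasis and primary organoids was 8.52 (SE 1.10), 10.56 without Primary2 replicate 2, and 8.11 without Met2 replicate 1. Within round 2 it was 7.86, and 7.03 without Met2 replicate 1.

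Within the metastasis groups Stk39 varied widely. Replicate 3 was the lowest in Met1, Met2 and Met3, at 3.97, 4.26 and 6.13 CPM, and the group means were 27.2 ± 21.1, 27.8 ± 23.9 and 16.4 ± 12.3 CPM (SD, n = 3). The labels state no pairing of these numbers across groups, and the numbers are read here as names of samples. Met3 differed from Met2 by -0.76 on the log2 scale (SE 0.93, edgeR quasi-likelihood test, adjusted p = 0.729), and Met3 from Met1 by -0.73 (SE 0.92), with overlapping libraries in both cases. Without Met2 replicate 1 the former difference was 0.07 (adjusted p = 1.0). No fold is given between the 2 primary groups, which hold 1 and 7 counts. The metastasis effect of round 3 minus that of round 2 was 1.33 (SE 2.80, adjusted p = 0.878). With 1 and 7 primary counts this test could hardly call a difference. The sign of this difference between rounds changed in 2 of 22 alternatives. Without Primary2 replicate 2, which holds 7 of the 8 primary counts, it was -2.76 (adjusted p = 0.864). Without Met2 replicate 1 it was 2.16 (adjusted p = 0.860), and over 22 alternatives it ran from -2.76 to 3.36.

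The tested genes nearest to Stk39 were expressed in all 5 groups and differed by far less than Stk39. The nearest tested protein-coding gene on the lower side, Ttc21b, lay 1953828 bases away. On the other side Cers6, a ceramide synthase gene, lay 389173 bases away. In later metastasis against primary organoids Ttc21b was lower by 0.66 (log2 change -0.66, SE 0.13, adjusted p = 0.00303), and Cers6 was higher by 0.53 (SE 0.10, adjusted p = 0.00284). Cers6 was also higher in Met1 than in primary organoids, by 0.57 (SE 0.13, adjusted p = 0.00623), and averaged 91.1, 83.0 and 94.1 CPM in Met1, Met2 and Met3 against 60.8 and 62.0 CPM in Primary2 and Primary3. Over 32 tested genes within 3 Mb, the median difference from the primary mean was -0.17 to -0.40 in each of the 9 metastasis libraries. In those libraries Stk39 itself stood 4.75 to 8.43 log2 units above the primary mean.

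**Figure D1:**
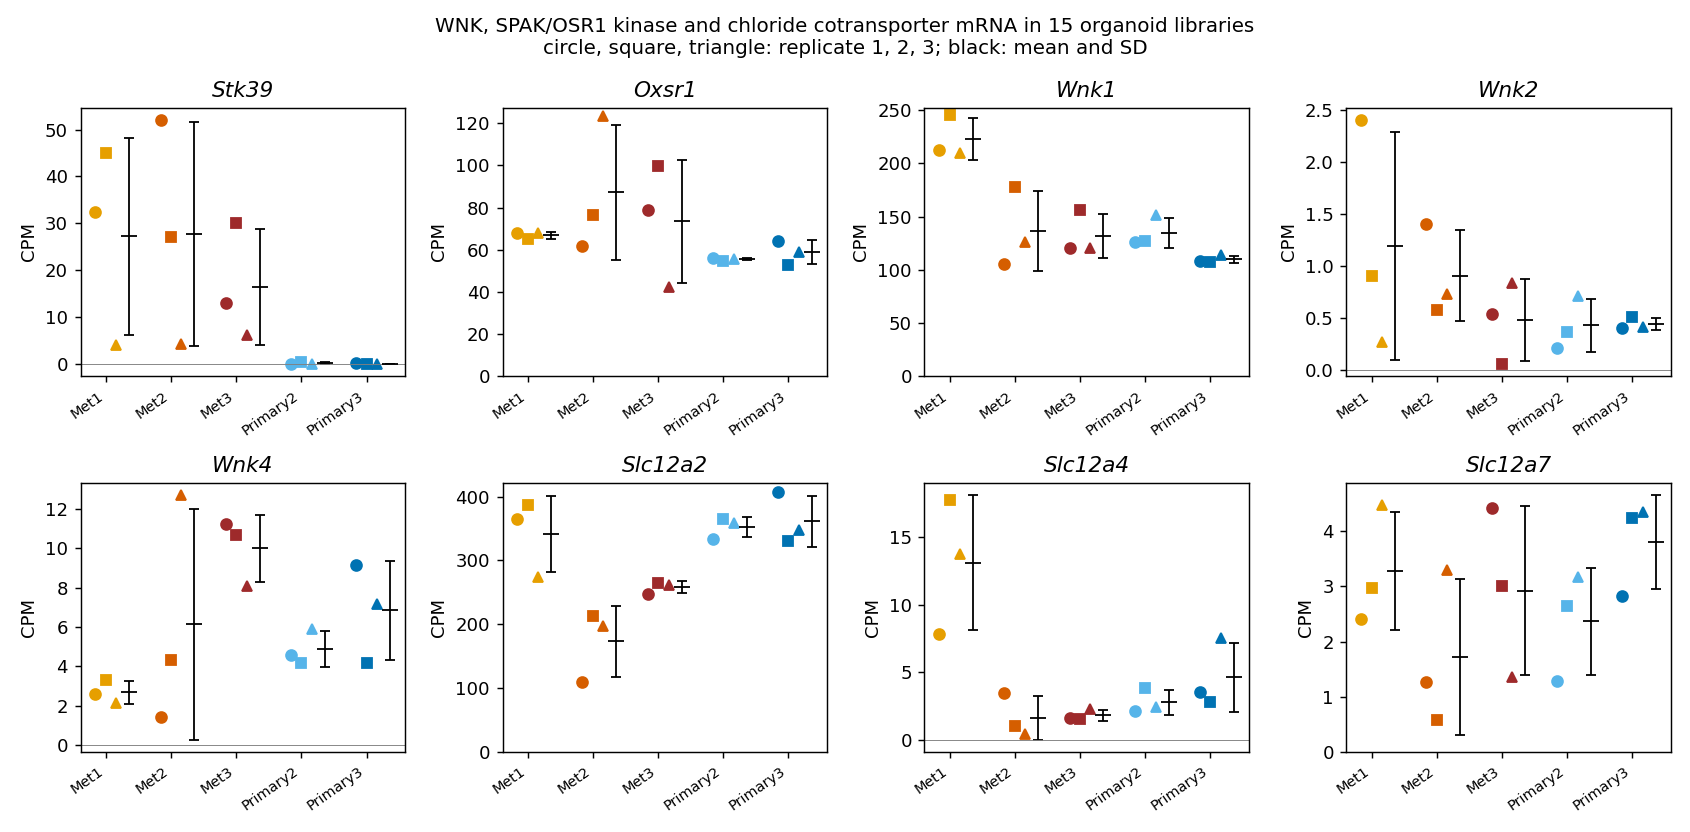
Level of each of the 8 genes in CPM (linear axis) in every library, by group. Coloured symbols are replicates 1, 2 and 3 (circle, square, triangle), and black marks are the mean and SD of 3 libraries. Stk39 stands at 3.97 CPM or more in all metastasis libraries and at 0.324 CPM or less in all primary ones, and Slc12a2 is lower in Met2 and Met3 than in both primary groups and in Met1.

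Oxsr1 (ENSMUSG00000036737, chromosome 9, 119238432 to 119322427, minus strand) encodes OSR1, the other kinase on which WNKs act. It stood at 68.1, 65.0 and 67.8 CPM in Met1, at 61.8, 76.4 and 123 CPM in Met2, and at 78.7, 99.8 and 42.3 CPM in Met3. Primary2 stood at 56.1, 54.9 and 55.9 CPM and Primary3 at 64.4, 53.0 and 59.0 CPM. Every library therefore expressed Oxsr1, and the later metastases spread on both sides of the narrow primary range. The fitted difference of later metastasis and primary organoids was 0.49 (SE 0.19) and missed the test (adjusted p = 0.0741). It passed without Met3 replicate 3 (0.63, adjusted p = 0.0108) and without Met2 replicate 1 (0.58, adjusted p = 0.0294). It also passed with DESeq2 (0.50, adjusted p = 0.0438), and over 22 alternatives the adjusted p ran from 0.0108 to 0.187. Met1 lay above all 6 primary libraries by 0.23 (SE 0.24, adjusted p = 0.489). That difference passed when only the Met1 and primary libraries were fitted (0.26, adjusted p = 0.0418).

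Levels were also set per kilobase of the union of all annotated exons, a rough scale for comparing genes. That union can be longer than the transcripts expressed, so shares and ranks between genes depend on it. On this scale Stk39 came on top of an Oxsr1 level that every library had. Stk39 made up 34.0%, 42.8% and 5.96% of the Stk39 and Oxsr1 sum in Met1, 47.7%, 27.6% and 3.59% in Met2, and 15.2%, 24.5% and 13.5% in Met3. It made up at most 0.633% in any primary library. The sum of both genes was 9.13 to 24.7 CPM per kilobase (median 19.7) in the 9 metastasis libraries and 9.91 to 12.0 (median 10.5) in the 6 primary libraries. Only Met3 replicate 3, with the lowest Oxsr1 of all libraries, had a sum inside or under the primary range.

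**Figure D2:**
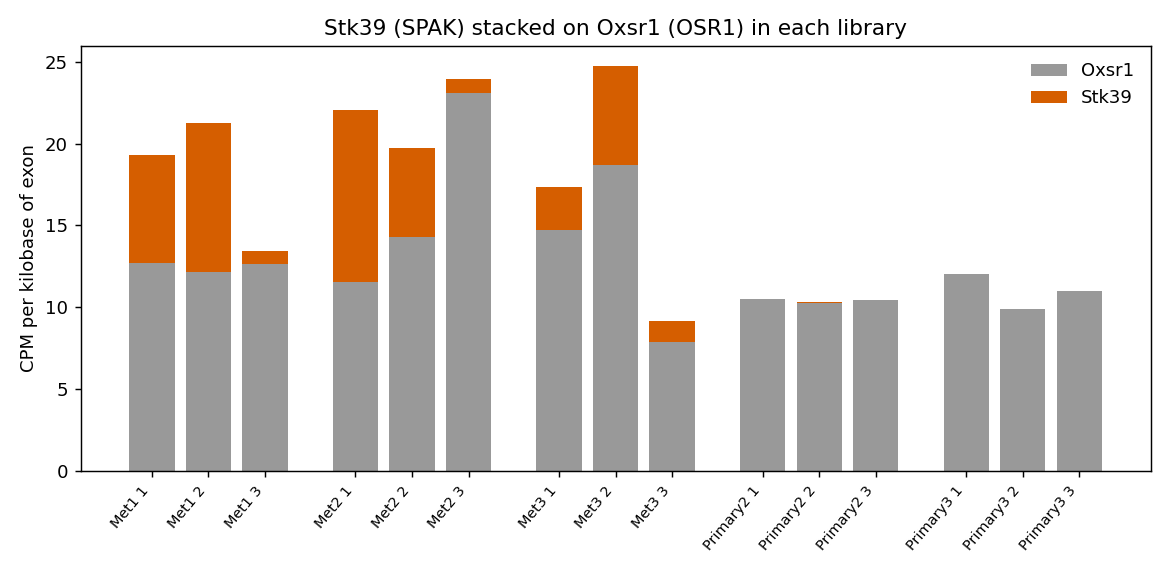
Stk39 (orange) stacked on Oxsr1 (grey) in CPM per kilobase of exon for each of the 15 libraries, labelled by group and replicate. Oxsr1 is present in every bar, and Stk39 adds 0.802 CPM per kilobase or more to each metastasis bar and almost nothing to the primary bars.

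The spread of Oxsr1 among the later metastases went with that of the genes around it in some libraries and not in others. Relative to the primary mean, the median of 44 tested genes within 3 Mb of Oxsr1 was 0.48 in Met2 replicate 3, where Oxsr1 was 1.11 higher. It was -0.53 in Met3 replicate 3, where Oxsr1 was 0.43 lower (log2 difference -0.43). In Met3 replicates 1 and 2 the same genes were at -0.24 while Oxsr1 was 0.46 and 0.80 above the primary mean. The nearest tested protein-coding genes on either side were Plcd1, a phospholipase C gene 144930 bases away, and Myd88, 13507 bases away. Myd88 encodes an adaptor of Toll-like receptors. Both rose in later metastasis against primary organoids, by 1.75 (SE 0.53, adjusted p = 0.0256) and 0.77 (SE 0.22, adjusted p = 0.0212). Another protein-coding gene, Slc22a14, overlaps Oxsr1 on the same strand. What part the region has in the level of Oxsr1 was not tested.

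**Figure D3:**
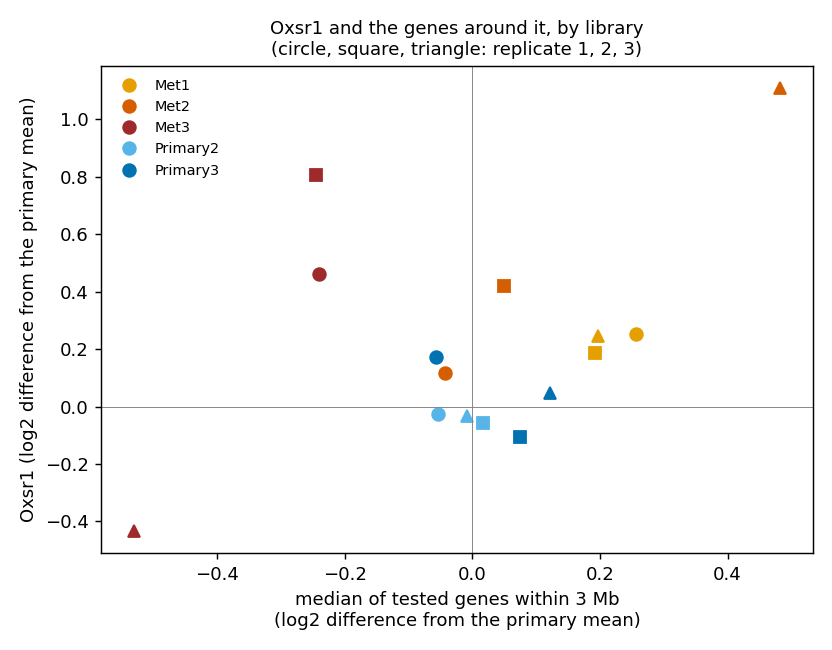
Oxsr1 against the median of 44 tested genes within 3 Mb of it, both as log2 differences from the mean of the 6 primary libraries, with 1 point per library. Met2 replicate 3 is high on both axes and Met3 replicate 3 low on both, while Met3 replicates 1 and 2 have Oxsr1 above and the surrounding genes below the primary mean.

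Of the WNK kinases, Wnk1 (ENSMUSG00000045962, chromosome 6, 119923969 to 120038672, minus strand) was the most abundant per length in every group. It stood at 213, 245.0 and 209.7 CPM in Met1, at 105, 178 and 126 CPM in Met2, and at 120.1, 156 and 120.2 CPM in Met3. Primary2 stood at 126, 127 and 151 CPM, and Primary3 at 108, 107.5 and 114 CPM. The 3 Met1 libraries were the highest of all 15, and the other groups lay together. Wnk1 was higher in Met1 than in primary organoids by 0.87 (SE 0.15, adjusted p = 0.00160, 3 of 3 libraries above all 6). It fell by 0.75 from Met1 to Met3 (log2 change -0.75, SE 0.17, adjusted p = 0.00946). Both calls held in all 22 alternatives, with adjusted p of 1.27e-06 to 0.0129 and 0.000587 to 0.0490. Later metastasis and primary organoids differed by 0.14 (SE 0.12, adjusted p = 0.403). Of 739 other tested genes on chromosome 6, 216 were called higher and 41 lower in Met1 against primary. Their median was 0.29 there, against -0.03 over all genes, and Wnk1 lay above 77.3% of them. In Met3 against Met1 the median was -0.23 against 0.01, with 121 called lower and 54 higher. What part the chromosome has in the level of Wnk1 was not tested. A processed pseudogene, Gm16199, lies within Wnk1 on the opposite strand, and the strand setting of the counting is not given in the sources used here.

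Wnk4 (ENSMUSG00000035112, chromosome 11, 101260567 to 101277409, plus strand) encodes a WNK kinase best known from the kidney. It stood at 2.60, 3.28 and 2.15 CPM in Met1, at 1.40, 4.32 and 12.7 CPM in Met2, and at 11.2, 10.7 and 8.06 CPM in Met3. Primary2 stood at 4.56, 4.17 and 5.92 CPM and Primary3 at 9.16, 4.17 and 7.18 CPM. Met1 was therefore the low group, Met3 the high one, and Met2 spanned both. Wnk4 rose from Met1 to Met3 by 1.90 (SE 0.58, adjusted p = 0.0330, 3 of 3 libraries above all 3). That call was lost when any 1 of the 3 Met1 libraries, or Met3 replicate 1 or 2, was left out, with adjusted p of 0.0697 to 0.0957. Met1 lay below all 6 primary libraries by a fitted -1.11 (SE 0.51, adjusted p = 0.119). That difference passed with only these groups in the fit (adjusted p = 0.0223), without Met2 replicate 1 (0.0297) and without Met2 replicate 3 (0.03998). An antisense gene, Gm11615, overlaps Wnk4.

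Wnk2 (ENSMUSG00000037989, chromosome 13, 49036303 to 49148014, minus strand), a WNK gene best known from the brain, was scarce. It ranged from 0.0576 to 2.40 CPM over the 15 libraries, with 1 to 48 counts per library, and passed no test. The highest library was Met1 replicate 1 at 2.40 CPM, while its group mates stood at 0.900 and 0.274 CPM. Met1 exceeded primary organoids by 1.43 (SE 0.68, adjusted p = 0.129).

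Per length, the balance among the WNK genes shifted between Met1 and Met3. Wnk4 made up 5.32% to 6.80% of the sum of Wnk1, Wnk2 and Wnk4 in Met1 and 26.6% to 33.7% in Met3. It made up 15.2% to 17.6% in Primary2, 17.4% to 31.5% in Primary3 and 6.61% to 35.3% in Met2. Wnk1 held most of the rest, from 63.7% in Met2 replicate 3 to 94.4% in Met1 replicate 3. The size of these shares depends on the exon lengths used, 22825 bases for Wnk1 and 4148 for Wnk4.

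Slc12a2 (ENSMUSG00000024597, chromosome 18, 57878678 to 57946821, plus strand) encodes NKCC1. It stood at 365, 387 and 274 CPM in Met1, at 109, 213 and 197 CPM in Met2, and at 247, 264 and 262 CPM in Met3. Primary2 stood at 334, 364 and 358 CPM, and Primary3 at 407, 330.4 and 348 CPM. All 6 later metastasis libraries lay below all 6 primary libraries, the highest of the former at 264 and the lowest of the latter at 330.4 CPM. Met1 overlapped the primary libraries: replicates 1 and 2 lay within their range and replicate 3 below it.

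The mean was 216 ± 58.5 CPM in the later metastasis libraries and 357 ± 27.6 CPM in the primary libraries (SD, n = 6 each). The fitted log2 difference was -0.76 (SE 0.15). It was -0.63 without Met2 replicate 1, the lowest library. Within round 2 the difference was -1.02 (SE 0.21), or -0.78 without that library, and within round 3 it was -0.49 (SE 0.20). Met1 differed from primary organoids by -0.06 (SE 0.18), and Met3 from Met1 by -0.41 (SE 0.20). Between the rounds the metastasis effect differed by 0.54 (SE 0.29, adjusted p = 0.472), or by 0.29 without Met2 replicate 1 (adjusted p = 0.684). Met3 lay above Met2 in 3 of 3 libraries by 0.57 (SE 0.21, adjusted p = 0.233), or by 0.33 without that library (adjusted p = 0.555). Primary3 differed from Primary2 by 0.04 (SE 0.20, adjusted p = 0.978). In these bulk samples fewer cells that express a gene and less RNA of it per cell cannot be told apart.

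Other genes of the same chromosome were also lower. Among 388 other tested genes of chromosome 18, 180 were called lower and 19 higher in later metastasis against primary organoids, with a median log2 change of -0.40 against 0.01 over all genes tested. Slc12a2 was below that median, with 20.1% of the chromosome's genes lower still. In Met1 against primary organoids the median of the same genes was -0.39, and Slc12a2 at -0.06 lay above 70.9% of them. The nearest tested protein-coding genes, Prrc1 and Isoc1, lay 485722 and 712645 bases from Slc12a2. They differed in the later metastases by 0.15 (SE 0.17, adjusted p = 0.516) and 0.09 (SE 0.23, adjusted p = 0.791). Over 18 tested genes within 3 Mb the median was between -0.07 and -0.35 in each of the 6 later metastasis libraries, where Slc12a2 itself was at -0.43 to -1.70. What part the chromosome has in the level of Slc12a2 was not tested.

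**Figure D4:**
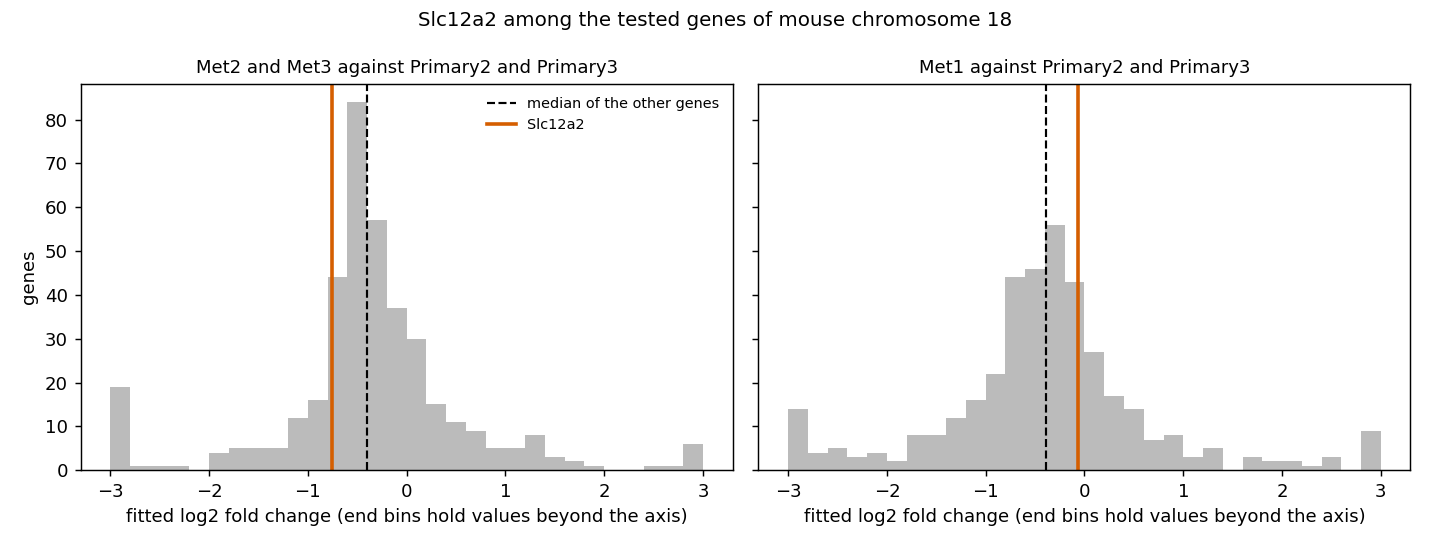
Number of tested genes of chromosome 18 by fitted log2 change, for later metastases against primary organoids (left) and Met1 against primary organoids (right). The dashed line is the median of the 388 other genes and the orange line is Slc12a2. The medians are alike, -0.40 and -0.39, while Slc12a2 lies at -0.76 on the left and -0.06 on the right.

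Slc12a4 (ENSMUSG00000017765, chromosome 8, 105943590 to 105966097, minus strand) encodes KCC1, a widely expressed potassium-chloride exporter that acts in volume decrease. It stood at 7.86, 17.7 and 13.7 CPM in Met1, at 3.48, 1.03 and 0.440 CPM in Met2, and at 1.61, 1.56 and 2.30 CPM in Met3. Primary2 stood at 2.15, 3.84 and 2.41 CPM and Primary3 at 3.57, 2.82 and 7.53 CPM. The 3 Met1 libraries were the highest of all 15, and 5 of the 6 later metastasis libraries stood at 2.30 CPM or less, the exception being Met2 replicate 1. Slc12a4 was higher in Met1 than in primary organoids by 1.86 (SE 0.49, adjusted p = 0.0140). Without Met1 replicate 2 the difference was 1.58 and missed the test (adjusted p = 0.0801). It fell by 2.84 from Met1 to Met3 (log2 change -2.84, SE 0.63, adjusted p = 0.00834), a call that held in all 22 alternatives (adjusted p 4.86e-05 to 0.0366). An antisense gene, Gm16156, overlaps Slc12a4.

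In the later metastases Slc12a4 differed from primary organoids by -1.05 (SE 0.43), which missed the test (adjusted p = 0.0822). Without Met2 replicate 1 it was lower by 1.63 (log2 change -1.63, adjusted p = 0.00473), and with DESeq2 the adjusted p was 0.0492. Over the 22 alternatives the adjusted p ran from 0.00473 to 0.212. Without the same library the difference also passed within round 2 (-1.91, adjusted p = 0.0425) and, narrowly, within round 3 (-1.34, adjusted p = 0.0491). Over all libraries it was -0.76 (adjusted p = 0.448) and -1.34 (adjusted p = 0.137). Whether Slc12a4 passed in the later metastases depended on Met2 replicate 1 and on the tool. Of 788 other tested genes on chromosome 8, 298 were called lower and 50 higher in later metastasis against primary organoids. Their median was -0.30 against 0.01 over all genes, with 10.8% lower than Slc12a4. In Met1 against primary that median was -0.31, where Slc12a4 was higher. What part the chromosome has in the level of Slc12a4 was not tested.

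Slc12a7 (ENSMUSG00000017756, chromosome 13, 73733094 to 73816754, plus strand) encodes KCC4. It ranged from 0.580 to 4.48 CPM in the metastasis libraries (n = 9) and from 1.29 to 4.35 CPM in the primary libraries (n = 6). The ranges overlapped almost entirely, and it passed no test. Its largest fitted difference was 0.77 for Met3 against Met2 (SE 0.59, adjusted p = 0.568).

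**Figure D5:**
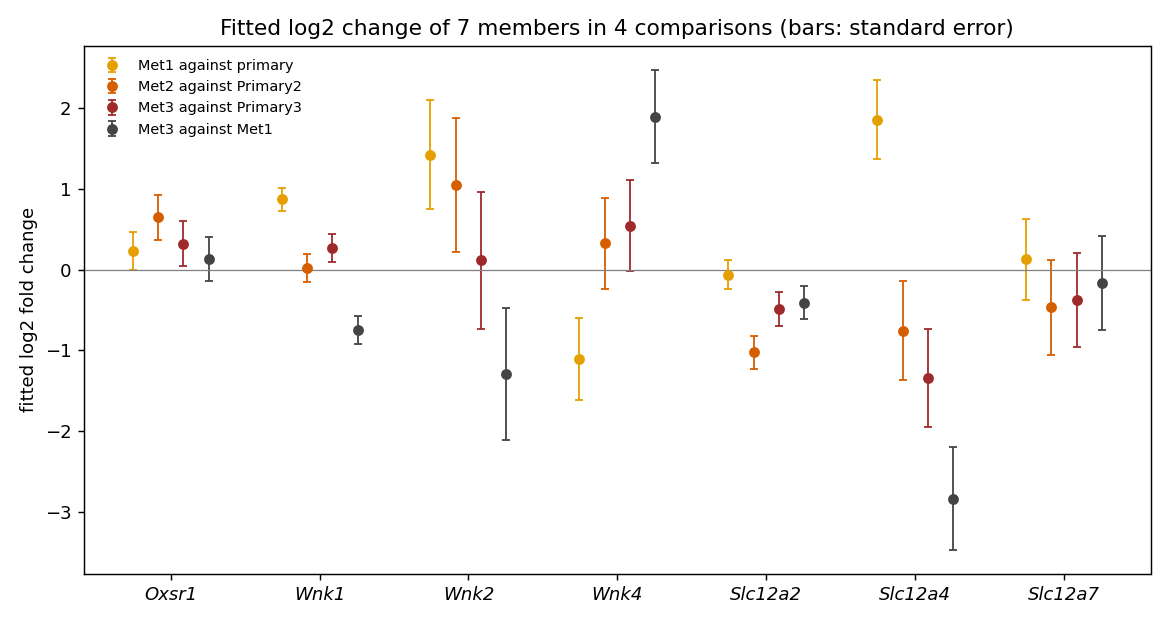
Fitted log2 fold change of 7 of the 8 genes (all but Stk39) in 4 comparisons, with standard errors as bars. Wnk1 and Slc12a4 stand above 0 in Met1 against primary and below 0 in Met3 against Met1, Wnk4 does the reverse, and Slc12a2 is below 0 in both rounds of metastasis against primary and near 0 for Met1.

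The members that changed by the test did so in comparisons with Met1. Among the 6 genes not picked for their values, 0 were called in later metastasis against primary organoids, where 30.4% of all tested genes were called, although 2 of the 6 had an unadjusted p under 0.05. Likewise 0 of 6 were called in round 2 (11.8% of all genes) and 0 of 6 in round 3 (19.1%), with 1 of 6 at an unadjusted p under 0.05 in each. In Met1 against primary 2 of 6 were called, both higher, where 29.6% of all genes were called, 14.9% higher and 14.7% lower. In Met3 against Met1 3 of 6 were called, 1 higher and 2 lower, where 23.4% of all genes were called, 11.6% higher and 11.8% lower. Both shares are on few genes, and the first is close to the background.

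The other 3 comparisons called none of the 8 genes. In Met3 against Met2 0 of 8 were called (0.275% of all genes), with 1 at an unadjusted p under 0.05. For the difference between rounds and for Primary3 against Primary2, 0 of 8 members and 0.0% of all genes were called by edgeR. Stk39, with 8 counts in all primary libraries, could hardly be called in either. At an unadjusted p under 0.05, 0 of 8 members passed in either, and 1817 and 1063 of all genes did. DESeq2 called 224 and 43 genes there.

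Genes whose libraries did not overlap between sides were also counted. They were 2 of 8 for later metastasis against primary organoids, namely the 2 picked genes, where 12.2% of all tested genes did not overlap. In Met1 against primary they were 5 of 8, Stk39, Oxsr1, Wnk1, Wnk4 and Slc12a4, against 32.5% of all genes. Within round 2 they were 3 of 8, the 2 picked genes and Oxsr1, against 29.6% of all genes. Within round 3 they were 4 of 8, the 2 picked genes, Wnk1 and Slc12a4, against 44.3%. For Met3 against Met1 they were 4 of 8, Slc12a2, Wnk1, Wnk4 and Slc12a4, against 44.5%. For Met3 against Met2 they were 1 of 8 (15.4%) and for Primary3 against Primary2 1 of 8 (16.7%). Against primary organoids and in Met3 against Met1, the choice of Stk39 and Slc12a2 partly set these counts. Such counts cannot be weighed against the share of all genes. Met1 against primary, later metastasis against primary and Met3 against Met1 share libraries, so their values are not independent of each other. The Met1 libraries also held the highest endothelial and hepatocyte marker sums given above, which were mostly Vwf and Alb. Pecam1, Cdh5 and Tek reached at most 0.411, 0.050 and 0.137 CPM in Met1, and each reached a higher value in Met2. The part of these sums in Wnk1, Wnk4 or Slc12a4 was not tested.

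The order of levels per length showed Slc12a2 on top in 4 of 5 groups, at 31.3 ± 5.47 CPM per kilobase in Met1, 23.6 ± 0.845 in Met3, 32.3 ± 1.45 in Primary2 and 33.1 ± 3.66 in Primary3 (SD, n = 3). In Met2 Oxsr1 (16.3 ± 6.02) and Slc12a2 (15.9 ± 5.12) had overlapping ranges. Wnk1 had rank 3 in every group, with 4.81 ± 0.143 in Primary3 to 9.75 ± 0.858 in Met1. Stk39 had rank 4 in the 3 metastasis groups, where its range overlapped that of the gene below it. In Met2 and Met3 its range also overlapped that of Wnk1 above it. Stk39 was last in both primary groups, with a range that overlapped that of Wnk2 in Primary2. Wnk2 was last in the metastasis groups.

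Partners of the WNK pathway moved in both directions in later metastasis against primary organoids. Of 18 listed genes 16 were tested, 4 were called higher (14.3% of all tested genes) and 4 lower (16.1%), with a median log2 change of -0.11 against 0.01 over all genes. Cab39, which encodes the MO25 scaffold that boosts SPAK and OSR1 activity, rose by 0.41 (SE 0.09, adjusted p = 0.00442). Tsc22d4, a member of the TSC22 family tied to the WNK system, rose by 0.86 (SE 0.20, adjusted p = 0.00582). Wnk3, a further WNK kinase, fell by 2.50 (log2 change -2.50, SE 0.58, adjusted p = 0.00639), and Nedd4l, a ubiquitin ligase that acts on sodium channels and WNK1, fell by 0.68 (log2 change -0.68, SE 0.18, adjusted p = 0.0127). The other calls were Cul3 and Cab39l, which rose, and Rell2 and Klhl2, which fell. Nedd4l and Rell2 lie on chromosome 18, whose genes had a median of -0.40 as given above, and the part of the chromosome in their fall was not tested. Klhl3 and Aatk had too few counts to test.

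Wnk3 was a scarce transcript that separated Met3 from Met1. It stood at 1.301, 1.75 and 1.42 CPM in Met1 and at 0.0538, 0.173 and 0.0524 CPM in Met3, a fall of 3.92 (log2 change -3.92, SE 0.87, adjusted p = 0.00822). In Met2 it stood at 1.14, 0.129 and 0.0734 CPM, so replicate 1 alone stood near the Met1 level. Primary libraries held 0.642 to 2.59 CPM. In Met1 against primary the pathway list of 16 tested genes had 3 called higher (14.9% of all tested genes) and 3 lower (14.7%), and Cab39 rose there by 0.43 (SE 0.11, adjusted p = 0.01004). In Met3 against Met1 it had 1 higher (11.6%) and 3 lower (11.8%).

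Of 23 listed genes of epithelial chloride and ion transport 20 were tested. In later metastasis against primary organoids 5 of the 20 fell, where 16.1% of all tested genes did, and 1 rose, where 14.3% did. The median log2 change was -0.21 against 0.01 over all genes. Kcne3, the subunit that opens the basolateral potassium channel Kcnq1 during chloride secretion, fell by 1.34 (log2 change -1.34, SE 0.22, adjusted p = 0.00106), from 135 and 153 CPM on average in Primary2 and Primary3 to 56.7 and 57.0 CPM in Met2 and Met3. Slc4a4, a sodium-bicarbonate cotransporter gene, fell by 3.49 (log2 change -3.49, SE 0.63, adjusted p = 0.00162). Atp1b1, the beta subunit of the sodium pump, fell by 1.51 (log2 change -1.51, SE 0.30, adjusted p = 0.00289), and Slc26a9, an anion transporter, fell by 3.66 (log2 change -3.66, SE 0.78, adjusted p = 0.00417). Vipr1, a receptor of vasoactive intestinal peptide, was the one that rose.

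The chloride channel gene Cftr, the apical exit for chloride that NKCC1 supplies, differed by 0.74 in later metastasis against primary organoids (SE 0.34, adjusted p = 0.121). The same list was mixed in Met1 against primary, where 5 of the 20 were called higher (14.9% of all tested genes) and 2 lower (14.7%). There Kcne3 fell by 0.95 (log2 change -0.95, SE 0.28, adjusted p = 0.0245) while Atp1b1 rose by 1.01 (SE 0.35, adjusted p = 0.0426). In Met3 against Met1 6 were called lower (11.8% of all tested genes) and 1 higher (11.6%), among them Atp1b1 at -2.47 (SE 0.44, adjusted p = 0.00312) and Slc4a4 at -3.06 (SE 0.88, adjusted p = 0.0261).

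Over the 15 libraries, the log2 CPM of 10435 tested protein-coding genes was correlated with that of Stk39 and of Slc12a2. Each had an average log2 CPM of at least 1, so scarcer genes were not compared, and Gm and Rik names were left out. The genes closest to Stk39 were Spata6 (Pearson r = 0.964), Pgm3 (0.953), Neto2 (0.9502), Sox21 (0.940) and Tspan13 (0.938). Of these, Spata6 was the one with a like contrast. It averaged 18.9, 8.42 and 11.2 CPM in Met1, Met2 and Met3 and 0.289 and 0.206 CPM in Primary2 and Primary3. The rest were expressed in all groups, Pgm3 for example at 29.7, 28.8 and 29.7 CPM against 18.1 and 17.9 CPM. For Slc12a2 they were Kdm3b (0.915), Ankhd1 (0.912), Agps (0.906), Rapgef6 (0.905) and Slc39a4 (0.897), the first 2 of them on chromosome 18. These are correlations over 15 libraries that fall into groups, given without a p-value.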

How the data were processed

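Per the submitters' processing notes the authors used Salmon 1.3.0 and mm10. What they deposited is 1 table of estimated counts per gene, all whole numbers. The sources used here do not give the annotation release, gene summing, strand setting or rounding. GENCODE M21 (GRCm38) supplied symbols, positions and exon lengths for 54166 of 54418 IDs, and the transcripts for the printed exons. The coding sequences were aligned end to end.

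Groups follow the sample titles. The 8 genes and the lists were chosen with earlier results of these data known. Named beyond the 8 are up to 4 genes per list with the smallest p in later metastasis against primary organoids, the 5 genes most correlated with Stk39 and with Slc12a2, and their nearest tested neighbours. The neighbours of Oxsr1, further called list members, Cftr and the other Wnk3 values were chosen after their values were seen. A few results under this rule are left out here.

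edgeR 4.0.16 under R 4.3.3 (TMM, filterByExpr, quasi-likelihood F test, group means, all 15 libraries) tested 14925 genes, holding 99.9% of counts. "Later metastasis against primary" is the mean of Met2 and Met3 minus that of Primary2 and Primary3. P-values were adjusted by Benjamini-Hochberg over all tested genes within each of 8 comparisons, and a call is an adjusted p under 0.05. Standard errors are |log2 change| over the root of F. The coefficient of variation between replicates was 0.343. The fit was tested on simulated data. The alternatives were RLE size factors, 2 other filters, DESeq2 1.42.0, limma-voom 3.58.1, a replicate block, only the groups compared, and leaving out each library.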

Additional observations from a re-analysis of the deposited data

How the results depend on the processing

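Under 22 alternatives no value past the threshold changed sign, but values that missed it or are given without a test did: 43 of 1397 fitted values of the 8 genes had the other sign, in 20 of 64 combinations of gene and comparison. Examples are Wnk4 in later metastasis against primary (-0.08 to 0.67), Slc12a2 in Met1 against primary (-0.16 to 0.08), and Stk39 in Primary3 against Primary2 (-4.12 to 1.99). Of all results, 6 calls of single genes were lost, 11 were gained, 92 counts of calls moved by over 1.5 times or from 0, and the changes that bear on the 8 genes stand beside them in the report. Stk39 against primary organoids moved most with the libraries that hold its few primary counts: without Primary2 replicate 2 it was 10.56 for the later metastases, 11.94 within round 2 and 10.91 for Met1, and without Primary3 replicate 1 it was 11.22 within round 3. Wnk2, with 1 to 48 counts per library, and Stk39 in the primary libraries are limited by depth.

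Genes called in Met2 against Primary2 numbered 1768, but 2830 with DESeq2, 215 with only the groups compared, and 715 to 2150 with 1 library left out (lowest without a Primary2 library). The difference between rounds called 0 genes, 224 with DESeq2, and 0 to 17 with 1 library left out. Met3 against Met2 called 41, but 85 with no filter, 588 with DESeq2, 4 with limma-voom, 0 with only the groups compared and 0 to 203 with 1 library left out. Primary3 against Primary2 called 0, 43 with DESeq2, 1 with limma-voom, and 0 to 2 with 1 library left out. With 1 library left out, Met3 against Primary3 ran from 1372 (without Primary3 replicate 3) to 3668, Met1 against primary from 2115 (without Met1 replicate 2) to 5257, and Met3 against Met1 from 1988 (without Met1 replicate 2) to 4449. Later metastasis against primary ran from 3656 to 5265.

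List counts for later metastasis against primary moved by 1 to 3 genes. With no filter, WNK partners called higher numbered 2, other Slc12 family genes (2 of 6 tested, 1 called lower) 0 lower and the Ste20 list higher 2. The other Slc12 count was also 0 with RLE size factors and with only the groups compared. With limma-voom, ion transport higher was 0 and Ste20 lower 1. With only the groups compared, cell volume lower was 1 and Ste20 lower 1. With 1 library left out, WNK partners ran from 2 to 4 higher and 2 to 5 lower, and other Slc12 from 0 to 1 lower. Ion transport ran from 0 to 4 higher (4 without Met2 replicate 1, 0 without Met2 replicate 2). Cell volume ran from 1 to 2 lower, and the Ste20 list from 2 to 4 higher and 1 to 3 lower. Which genes cross the threshold was not followed further, and the cause was not tested.

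The replicate numbers were checked for pairing. Of 30 same-numbered pairs of libraries (r -0.13 to 0.27), 8 had deviations from their group means that correlated above 0.1. In all, 8 of 15 libraries were closest to their own number. A check on so few libraries neither shows nor excludes a pairing, and the numbers were read as names of samples. With the replicate block, Met3 against Met2 called 0 genes, other Slc12 lower 0 and Ste20 higher 2, and no call of the 8 genes changed.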

Other observations

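A list of Ste20 kinases related to SPAK and OSR1, which also holds Stk11, was tested in full (18 of 18). In later metastasis against primary organoids 4 were called higher (14.3% of all tested genes) and 2 lower (16.1%). The median log2 change was -0.05 against 0.01 over all genes. Stk25 rose by 0.86 (SE 0.13, adjusted p = 0.000449), from 91.5 and 104 CPM on average in Primary2 and Primary3 to 157 and 200.2 CPM in Met2 and Met3, with 161 CPM in Met1. Stk24, its close paralog, rose by 0.38 (SE 0.08, adjusted p = 0.00440). Stk11, the LKB1 kinase gene and not a member of the Ste20 family, rose by 0.27 (SE 0.09, adjusted p = 0.0411). Taok1, a kinase of the stress response, fell by 0.46 (log2 change -0.46, SE 0.11, adjusted p = 0.00691). Mink1 also rose and Tnik fell.

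Genes of cell volume and the osmotic response, on which chloride transport acts, had 3 called higher (14.3% of all tested genes) and 2 lower (16.1%) among 15 tested of 16, with a median of 0.11 against 0.01 over all genes. The water channel gene Aqp1 was at 46.8 and 323 CPM on average in Primary2 and Primary3 and at 0.243, 0.169 and 0.250 CPM in Met1, Met2 and Met3 (log2 change -9.20, SE 0.69, adjusted p = 7.12e-06). Lrrc8d, a subunit of the volume-regulated anion channel, rose by 0.63 (SE 0.16, adjusted p = 0.00914), and Lrrc8c, another subunit, fell. Slc38a2, an amino acid transporter induced by hypertonic stress, rose by 0.84 (SE 0.22, adjusted p = 0.0118). Aqp3, a water and glycerol channel gene, rose by 1.97 (SE 0.68, adjusted p = 0.0435).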
